A study of Rattus norvegicus with 8 samples.

Results

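The interleukin-1 (IL-1) family genes measured here were 10 ligands, receptors and an antagonist: Il1a, Il1b, Il1rn, Il1r1, Il1r2, Il1rap, Il1rl1, Il18, Il33 and Il18r1. They were chosen by name, as the probe sets whose platform annotation gives exactly 1 symbol equal to a listed gene. Each gene had 1 probe set, so 10 of the 28826 probe sets on the array belong to them, and all 10 were tested with no filter. RNA was isolated from left ventricles of late-pregnant female rats whose hearts had gone through ischemia, the loss of blood supply, and then reperfusion. The 3 placebo samples received a vehicle at reperfusion and the 5 samples that the labels call ILPD received the treatment, which the design text writes as ITLD and gives as 1 bolus of 5 mg/kg. That both abbreviations mean 1 treatment, and that it is the Intralipid of the series title, a lipid emulsion for intravenous use, was assumed. Ischemia, reperfusion and pregnancy are shared by both groups, and the labels used here give no strain, age or hour of sampling. The labels number the samples within a group without saying that each is a separate animal, so each p-value reflects only how much these samples vary, part of which may be technical.

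Members of the IL-1 family carry the first signals of sterile injury. Il1a encodes IL-1 alpha, which dying cells release, and Il1b encodes IL-1 beta, which myeloid cells make as a precursor that caspase-1 cleaves. Both bind the receptor Il1r1, which signals together with the accessory chain Il1rap through the adaptor MyD88 to NF-kB; Il1rn encodes an antagonist that occupies that receptor, and Il1r2 a decoy receptor that binds the ligand without signalling. IL-33, an alarmin of stromal and endothelial cells, binds Il1rl1 (ST2) with the same accessory chain, and IL-18 binds Il18r1. In the infarcted heart IL-1 and IL-18 are known for recruiting leukocytes and depressing contraction.

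All values are log2 values as the authors deposited them, and each difference is ILPD minus placebo. The array medians ran from 7.08 to 7.14 in placebo and from 7.16 to 7.20 in ILPD, so every ILPD array had the higher median. Any 2 arrays correlated at 0.989 or more over all probe sets. Markers of ventricular cardiomyocytes were bright, with list means of 13.27 to 13.56 per array. The atrial light chain Myl7 was uneven, from 10.83 to 13.18 over the placebo arrays and from 10.003 to 11.90 over the ILPD arrays. Of the 3 measured atrial, 6 skeletal muscle and 3 B cell markers 0 passed the test below (limma), and 0 had an unadjusted p under 0.05. The number of arrays limits the precision, and a value from whole tissue cannot tell fewer cells of a type apart from less RNA per cell.

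The signalling receptor Il1r1 was the member that rose in the ILPD hearts. It rose by 0.71 (SE 0.08), a 1.63-fold difference. The decoy receptor Il1r2 had the largest difference, 1.17 (SE 0.30), and the ligand Il1a the next, 0.75 (SE 0.20), but neither passed the test. In limma's moderated test, adjusted by Benjamini-Hochberg across the whole array, 1 of 10 members was higher at an adjusted p under 0.05 and 0 were lower, with 5 higher and 0 lower at an unadjusted p under 0.05. With ILPD array 3 left out 2 members were called, Il1rl1 being added, and with ILPD array 5 left out also 2, Il1a being added. Over all probe sets 2.81% were called, 1.96% as higher and 0.857% as lower. A difference above 0 was found for 8 of 10 members, beside 58.5% of all probe sets. The median difference was 0.45 over the members and 0.02 over all probe sets. The 2 groups did not overlap for 4 members, Il1a, Il1r1, Il1r2 and Il1rl1, with ILPD higher in each, beside 12.4% of all probe sets without overlap, 7.95% with ILPD higher and 4.42% with ILPD lower.

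**Figure D1:**
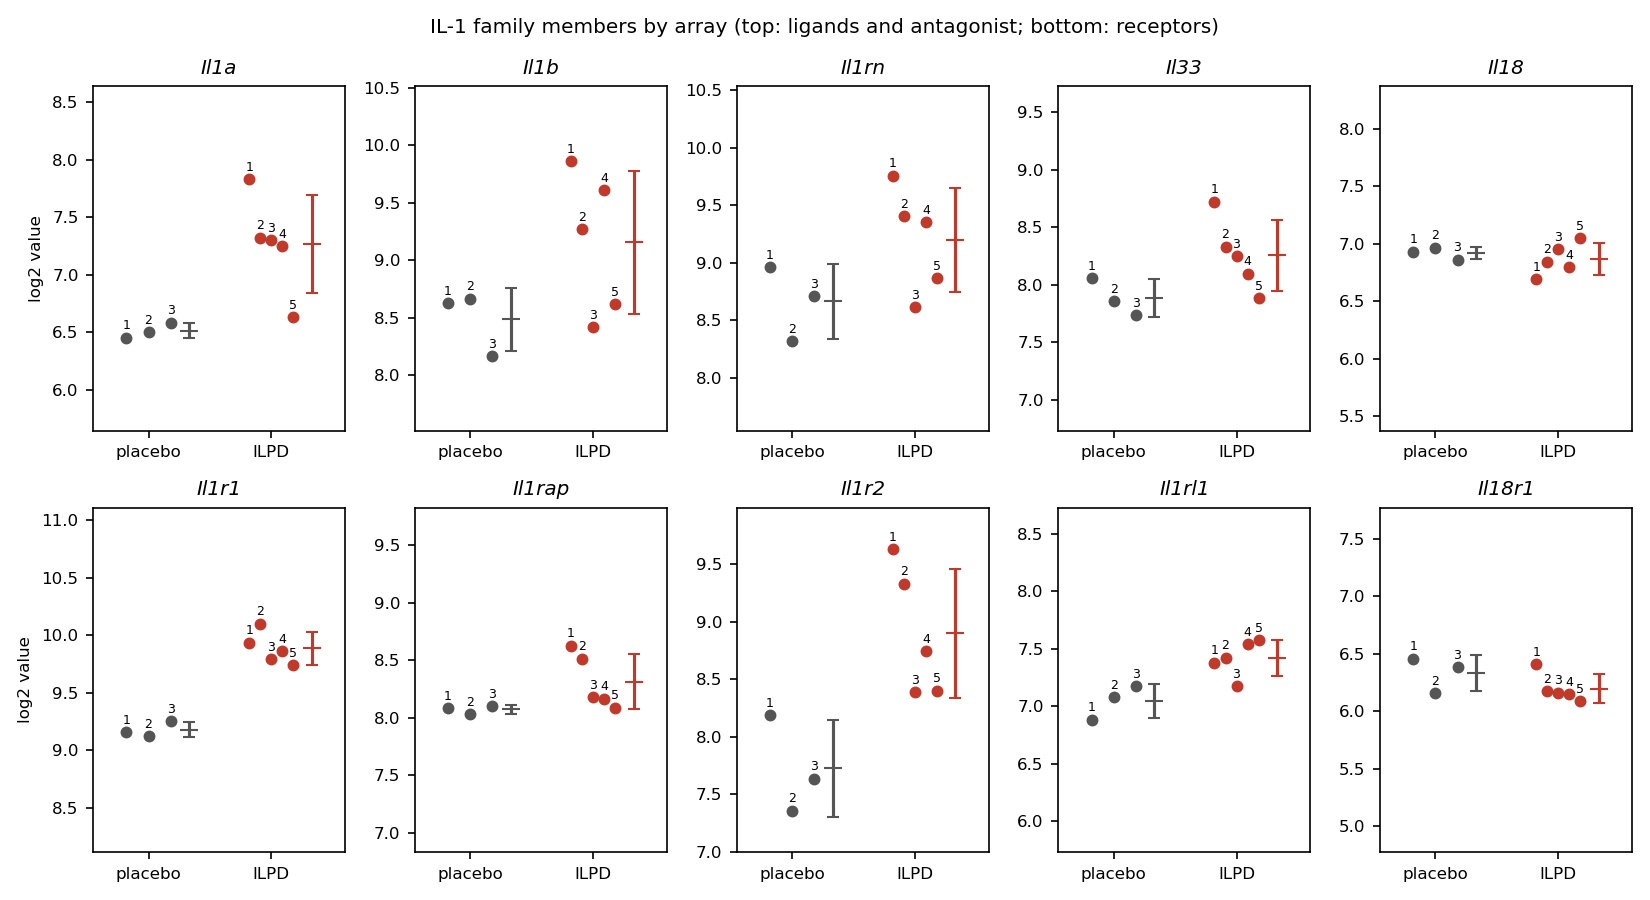
Log2 value (vertical axis) of each member on each array, numbered by replicate, with placebo in grey and ILPD in red; horizontal marks and bars give the mean and SD (n = 3 and n = 5), and every panel spans the same log2 range. For Il1r1 the 5 ILPD arrays sit between 9.74 and 10.10, all above the placebo arrays, while for Il1b and Il1rn some ILPD arrays lie within the placebo range.

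Promoter windows show what lies before the start of these genes. RefSeq windows of assembly GRCr8 matched 9 of the 10 members by symbol, all but Il1r2. The 250 bases before the start are shown for the members without overlap that had a window, Il1r1, Il1a and Il1rl1, and for Il1b, the best known ligand. Capitals mark matches, on either strand, to 5 motifs: the NF-kB consensus (GGGRNNYYCC), AP-1 (TGANTCA), C/EBP (TTGCNNAA), STAT (TTCNNNGAA) and the TATA box (TATAAA). R stands for A or G, Y for C or T and N for any base.
Il1r1, chr9:50034133-50034382, plus strand: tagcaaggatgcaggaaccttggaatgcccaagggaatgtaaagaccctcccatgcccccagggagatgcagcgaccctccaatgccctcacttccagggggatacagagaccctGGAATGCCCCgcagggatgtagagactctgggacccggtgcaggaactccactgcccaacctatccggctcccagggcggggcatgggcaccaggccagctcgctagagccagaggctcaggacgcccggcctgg
Il1a, chr3:136990018-136990267, minus strand: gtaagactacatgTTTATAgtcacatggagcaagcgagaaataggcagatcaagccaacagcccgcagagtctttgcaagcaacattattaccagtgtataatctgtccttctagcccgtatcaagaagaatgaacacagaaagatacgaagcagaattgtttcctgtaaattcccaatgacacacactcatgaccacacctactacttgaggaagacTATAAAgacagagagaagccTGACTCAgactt
Il1b, chr3:137036582-137036831, minus strand: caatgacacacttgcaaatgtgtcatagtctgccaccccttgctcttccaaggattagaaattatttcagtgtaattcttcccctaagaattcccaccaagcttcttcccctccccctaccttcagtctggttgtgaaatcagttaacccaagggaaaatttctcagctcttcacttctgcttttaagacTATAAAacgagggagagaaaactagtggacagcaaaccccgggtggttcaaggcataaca
Il1rl1, chr9:50203388-50203637, plus strand: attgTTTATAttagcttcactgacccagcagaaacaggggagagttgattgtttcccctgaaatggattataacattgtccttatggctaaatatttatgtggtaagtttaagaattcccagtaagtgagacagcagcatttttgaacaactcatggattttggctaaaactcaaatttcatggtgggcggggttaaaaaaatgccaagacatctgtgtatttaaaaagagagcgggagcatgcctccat
The Il1r1 window held 1 match to the NF-kB consensus, on the other strand, 135 to 126 bases before the start, and no TATA box. The Il1a window held an AP-1 match 12 to 6 bases before the start and a TATA box 32 to 27 bases before it. In the Il1b window a TATA box lay 60 to 55 bases before the start, and in the Il1rl1 window the match to the TATA letters, on the other strand, lay 246 to 241 bases before it. Among the 9 members with a window, 2 held the NF-kB consensus (Il1r1 and Il1rap), 1 held AP-1, 1 C/EBP (Il33), 1 STAT (Il18r1) and 5 the TATA box. A member counted if any of its windows matched, and the 9 had 11 windows, 2 each for Il1rap and Il33. The shares that follow are per window, so the 2 measures differ. Of 33469 rat windows of the same length, 6.33% held the NF-kB consensus, 6.34% AP-1, 9.22% C/EBP, 7.67% STAT and 12.9% the TATA box. A match describes letters only, and which start site these hearts used was not measured.

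The 2 IL-1 agonists had positive differences that did not pass the test. Il1a (probe set 10849833) read 6.45, 6.50 and 6.58 in placebo and 7.83, 7.32, 7.30, 7.25 and 6.63 in ILPD. All ILPD arrays lay above all placebo arrays, ILPD array 5 by a small margin. The means were 6.51 ± 0.07 (SD, n = 3) and 7.27 ± 0.43 (SD, n = 5), a difference of 0.75 (95% interval 0.30 to 1.21, limma adjusted p = 0.0830). It passed in 3 of 15 alternatives: without ILPD array 5 (0.91, adjusted p = 0.0120), and on the 6 arrays whose replicate numbers occur in both groups, which leaves out ILPD arrays 4 and 5 (0.97), with the number as a block (adjusted p = 0.0330) and without it (0.0193). Over all 15 alternatives the adjusted p ran from 0.0120 to 0.220. Il1b (probe set 10849841) read 8.63, 8.67 and 8.17 in placebo and 9.86, 9.27, 8.42, 9.61 and 8.62 in ILPD. ILPD arrays 1, 2 and 4 stood above every placebo array, and arrays 3 and 5 fell inside the placebo range. The difference was 0.67 (SE 0.31, 95% interval -0.01 to 1.35, adjusted p = 0.284).

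Il1rn, the gene of the receptor antagonist (probe set 10834109), read 8.96, 8.32 and 8.71 in placebo. It read 9.76, 9.40, 8.61, 9.35 and 8.87 in ILPD. The ILPD arrays that were high for Il1b, arrays 1, 2 and 4, were also the 3 highest for Il1rn, and the groups overlapped. The difference was 0.53 (SE 0.24, limma adjusted p = 0.274). The log2 ratio of Il1b to Il1rn within an array averaged -0.18 ± 0.47 (SD, n = 3) in placebo and -0.04 ± 0.22 (SD, n = 5) in ILPD. The 0.13 between these means was smaller than the SD of the ratio in either group.

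The other ligands, IL-33 and IL-18, went apart in sign. Il33 (probe set 10714745) read 8.06, 7.86 and 7.74 in placebo and 8.72, 8.33, 8.25, 8.10 and 7.88 in ILPD. ILPD arrays 1 to 4 exceeded all placebo arrays and array 5 did not. The difference was 0.37 (95% interval 0.01 to 0.73, limma adjusted p = 0.256). Il18 (probe set 10909874) ran from 6.86 to 6.97 in placebo and from 6.69 to 7.05 in ILPD, with the ILPD arrays on both sides of the placebo range. Its difference was -0.05 (95% interval -0.23 to 0.13, adjusted p = 0.795). ILPD array 1, the highest array for Il1a, Il1b, Il1rn and Il33, was the lowest for Il18.

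Il1r1, which transmits both IL-1 signals, separated the groups widely relative to their spread. Its probe set (10922826) read 9.16, 9.12 and 9.25 in placebo and 9.93, 10.10, 9.79, 9.86 and 9.74 in ILPD. The gap between the highest placebo and the lowest ILPD array exceeded the SD of either group. The means were 9.18 ± 0.07 (SD, n = 3) and 9.89 ± 0.14 (SD, n = 5), and the difference of 0.71 had a 95% interval of 0.52 to 0.89 (limma adjusted p = 0.00343). Over 15 alternatives the difference stayed between 0.65 and 0.77 and the adjusted p between 0.00194 and 0.0300. Among 14497 named genes, the profiles over the 8 arrays nearest to Il1r1, after each profile's mean was subtracted, were those of Ets1, Serpinb10 and Cmtm8. Their Euclidean distances to it were 0.29, 0.30 and 0.31 on the log2 scale. Since they were selected for their likeness to a gene that was higher in ILPD, a higher level there follows from the selection and is a description: the differences were 0.59 for Ets1, an endothelial and lymphoid transcription factor, 0.71 for Serpinb10, a serine protease inhibitor, and 0.63 for Cmtm8.

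The accessory chain Il1rap did not pass the test. Il1rap (probe set 10755013) read 8.09, 8.03 and 8.10 in placebo and 8.63, 8.51, 8.18, 8.17 and 8.09 in ILPD. ILPD arrays 1 and 2 were high, arrays 3 and 4 slightly above placebo and array 5 within it. The difference was 0.24 (95% interval -0.03 to 0.51, limma adjusted p = 0.326). The log2 ratio of Il1rap to Il1r1 ran from -1.15 to -1.07 in placebo and from -1.69 to -1.31 in ILPD. Whether the 2 genes differed in their change was not tested.

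Il1r2, the decoy (probe set 10922816), had the widest range of any member. It read 8.19, 7.36 and 7.63 in placebo and 9.63, 9.33, 8.39, 8.74 and 8.40 in ILPD. All ILPD arrays exceeded all placebo arrays, with placebo array 1 and ILPD array 3 nearest to each other. The difference was 1.17 (95% interval 0.51 to 1.84), 2.25-fold, with limma adjusted p = 0.0683, running from 0.0398 to 0.218 over the alternatives. It passed in 2 of them, without dim probe sets (0.0473) and with the replicate number as a block (0.0398). The log2 ratio of decoy to signalling receptor was -1.45 ± 0.42 (SD, n = 3) in placebo and -0.99 ± 0.45 (SD, n = 5) in ILPD, with overlap.

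**Figure D2:**
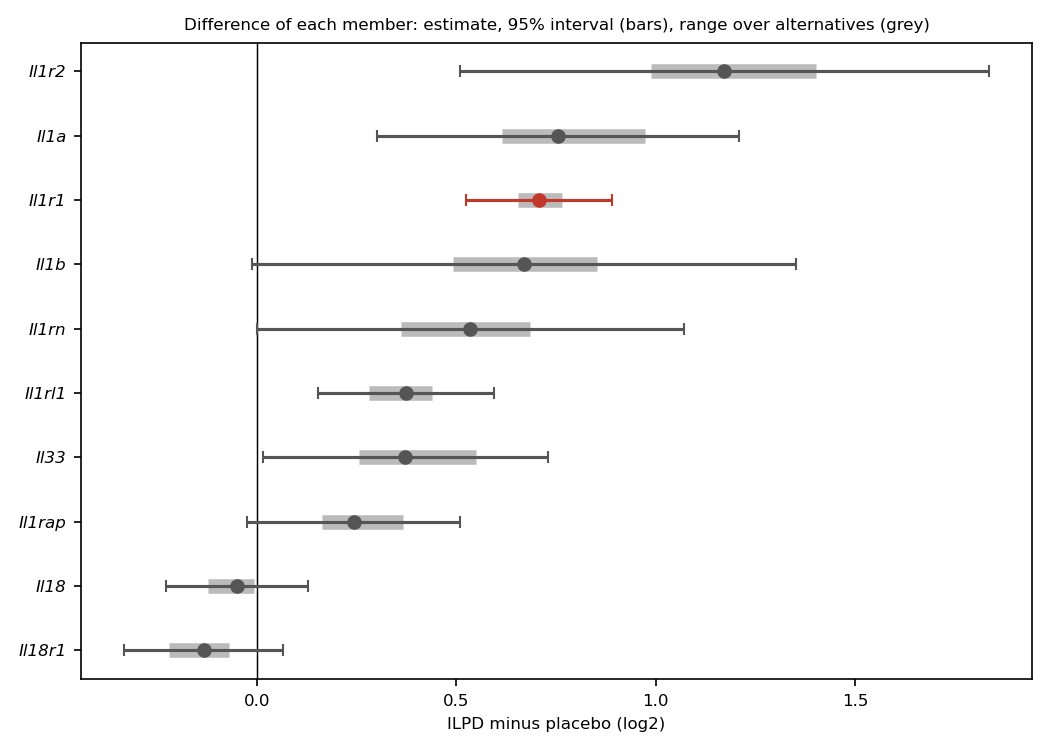
Difference between ILPD and placebo in log2 units (horizontal axis) for each member; points are limma estimates, thin bars 95% intervals not adjusted for the number of genes, and grey bands the range over the alternative analyses. Il1r1, in red, passed the adjusted threshold with the narrow interval of 0.52 to 0.89, while Il1r2 had a larger estimate of 1.17 and a wider interval.

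The receptors for IL-33 and IL-18 differed from each other in sign. Il1rl1 (probe set 10922857), which binds IL-33, read 6.89, 7.08 and 7.18 in placebo and 7.38, 7.43, 7.18, 7.54 and 7.58 in ILPD. The groups met at 7.18, where placebo array 3 and ILPD array 3 differed only beyond the second decimal. The difference was 0.37 (95% interval 0.15 to 0.59, limma adjusted p = 0.0776), and it passed without ILPD array 3 (0.43, adjusted p = 0.0415), with adjusted p up to 0.252 over the alternatives. This gene makes a membrane receptor and a soluble form, which 1 probe set value cannot separate. Unlike in most members, ILPD array 5 was the highest for Il1rl1 and array 1 was not. Il18r1 (probe set 10922871) ran from 6.15 to 6.46 in placebo and from 6.09 to 6.41 in ILPD, and differed by -0.13 (adjusted p = 0.480). It was the dimmest member: 22.9% of all probe sets had a lower mean.

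Of the receptor genes, 4 lie close together on rat chromosome 9. In the RefSeq table, their order along the chromosome is Map4k4, Il1r2, a histone gene, Il1r1, Il1rl2, Il1rl1, Il18r1, Il18rap and Slc9a4, counting protein-coding genes; Il18rap and the histone gene had no value here. The differences in that order were -0.08 for Map4k4, 1.17 for Il1r2, 0.71 for Il1r1, 0.17 for Il1rl2, 0.37 for Il1rl1, -0.13 for Il18r1 and -0.02 for Slc9a4. The members without overlap were thus Il1r2, Il1r1 and Il1rl1, and both flanking genes outside the family differed by less than 0.1. Only Il1r1 passed in limma (adjusted p = 0.00343), and whether neighbours differ from each other was not tested. On chromosome 3, Il1a and Il1b are neighbours, with differences of 0.75 and 0.67, whereas Il1rn lies elsewhere beside Il1f10 (0.00) and Psd4 (0.11).

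Arrays ranked alike for many members. ILPD array 1 gave the highest of the 8 values for 6 of 10 members, and ILPD array 5 for 2. Averaged over the 10 members, the arrays read 7.78, 7.61 and 7.66 in placebo and 8.49, 8.27, 7.92, 8.16 and 7.89 in ILPD. ILPD arrays 3 and 5 lay nearest to placebo. Neutrophils are cells known to express Il1r2 and Il1rn. Their marker list had its highest means on ILPD arrays 1, 2 and 4, while ILPD array 3 lay below placebo array 1. The list's mean per array was 7.53, 7.24 and 7.33 in placebo and 7.98, 7.92, 7.47, 7.86 and 7.53 in ILPD. The summed linear level of its 15 measured genes ran from 2894 to 4176 in placebo and from 3756.5 to 7185 in ILPD, 14 of 15 had a positive difference with a median of 0.12, and 0 passed in limma (4 were higher and 0 lower at an unadjusted p under 0.05). The median was 0.05 after quantile and 0.06 after cyclic loess normalization, with 12 of 15 positive in each, and 0.36 without the dimmest 40% of probe sets, with 10 of 10 positive. Marker calls, all higher, appeared in some alternatives: Mmp8, Trem1 and Cxcr2 without ILPD array 3, Mmp8 and Trem1 without ILPD array 5 and without the dimmest probe sets, Mmp8 without placebo array 1 and Trem1 with the replicate block. The first 3 markers of the list, S100a8, S100a9 and Mmp8, differed by 0.58, 0.74 and 1.32 (limma adjusted p = 0.176, 0.297 and 0.0511). All of them lay above the list's median of 0.12. The part of neutrophils in the members' differences, that of Il1r1 included, was not tested.

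Few markers of other cell types passed the test. Of 14 monocyte and macrophage markers, 1 rose, the chemokine receptor Cx3cr1 (0.76, limma adjusted p = 0.0311), and 11 had a positive difference, with a median of 0.17; Cd68, Csf1r and Adgre1 differed by 0.19, 0.19 and -0.17. The summed level of that list was 9047 to 12383 in placebo and 12146 to 18541 in ILPD. Its mean per array was highest on ILPD arrays 1 and 2 (9.45 and 9.34) and lowest on placebo array 2 (8.81). Among 11 endothelial markers, 2 rose, Egfl7 (0.60, adjusted p = 0.0282) and the guidance receptor Robo4 (0.43, adjusted p = 0.0381), with a median of 0.10 and summed levels of 14190 to 14301 in placebo and 13960 to 15980 in ILPD; Pecam1, Cdh5 and Kdr differed by 0.10, -0.16 and 0.32. In 8 mural cell markers, 1 rose, the pericyte potassium channel Kcnj8 (0.64, adjusted p = 0.0120). Of the 8, 5 had a positive difference, with a median of 0.09. Their summed levels were 32078 to 33719 in placebo and 29690 to 32642 in ILPD. Of 14 lymphoid markers 2 rose, the natural killer receptors Klrd1 (0.52, adjusted p = 0.0304) and Klrb1a (0.46, adjusted p = 0.0300). In that list 12 of 14 had a positive difference, with a median of 0.08. Mast cells, which carry much Il1rl1, had 0 of 11 markers passing (0 higher and 2 lower at an unadjusted p under 0.05), and 4 of 11 above 0; the protease Tpsb2 was called lower after quantile normalization (-0.39) and without placebo array 1 (-0.40). The list had summed levels of 1689 to 1947 in placebo and 1584 to 1781 in ILPD. Fibroblast markers had 0 of 12 passing (0 higher and 1 lower unadjusted), with a median of -0.06. Over the alternatives this median ran from -0.13 without ILPD array 5 to 0.00 after cyclic loess normalization. With the replicate block, and on its 6 arrays without a block, Lum was called lower (-0.59). Of 13 ventricular cardiomyocyte markers 1 fell, Tnnc1 (-0.37, adjusted p = 0.0195), 0 of 13 had a difference above 0, and the median was -0.18. That list moved with the scaling: its median was -0.03 after quantile and 0.03 after cyclic loess normalization, with 5 and 8 of 13 above 0, and the call of Tnnc1 was lost in both. Probe sets with a mean above 12, the range of these markers, had a median difference of -0.14 over the whole array. Each of these 7 marker calls was lost with placebo array 2 left out and with placebo array 3 left out, that of Kcnj8 in no other alternative. Some alternatives called further markers. Ccr2 was higher without the dimmest probe sets, with the replicate block and without placebo array 1. With the block Lyz2 was also higher and Cldn5 lower. Without ILPD array 1 Pdgfrb was higher. Without ILPD array 5 Actn2 and Casq2 were lower, Actn2 also on the block's 6 arrays without a block. The part of these cell types in the members' differences was not tested, and no detection call was used to say which markers were at background.

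**Figure D3:**
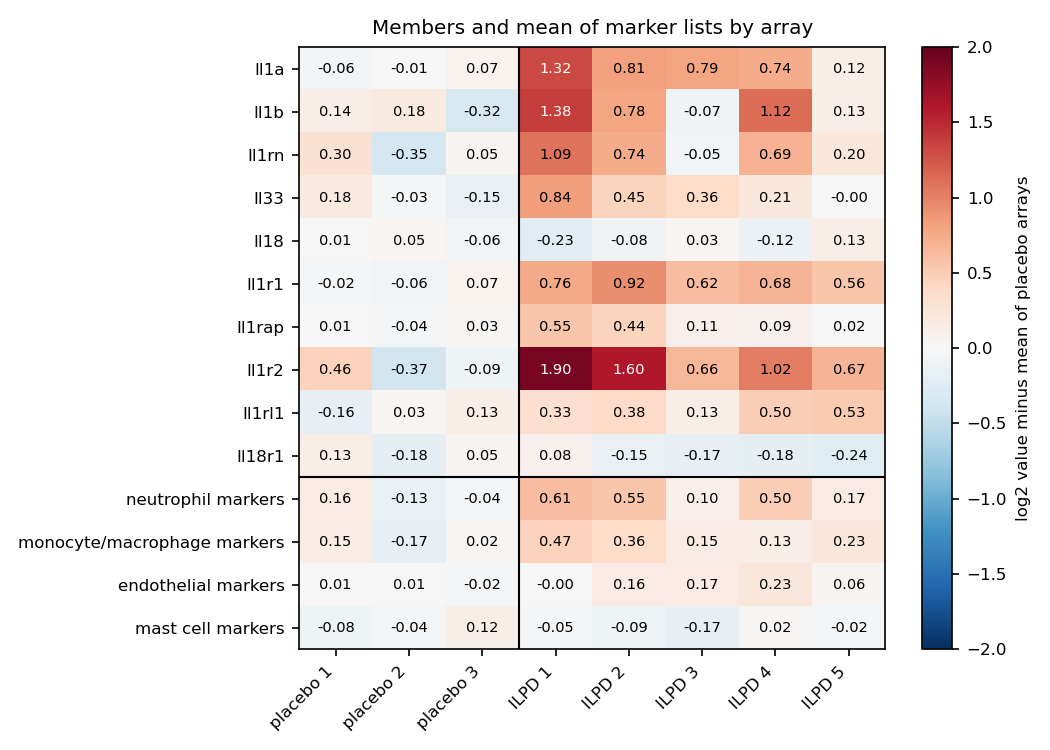
Log2 value of each member (upper rows) and mean log2 value of 4 marker lists (lower rows) on each array (columns), minus the mean of the placebo arrays; red is higher and blue lower, and cells print the number. Il1r1 is red on all 5 ILPD arrays; Il1b and Il1rn are near 0 on ILPD array 3.

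Of 72 measured genes around the family, 6 rose and 0 fell, and 4 of the 6 were targets of IL-1. Over all 14497 named genes, each by its brightest probe set, 332 were called higher and 169 lower. Of these, 7973 had a positive difference, and the median was 0.01. Other ligands and receptors of the family numbered 9 measured genes, of which 0 passed in limma (1 higher and 0 lower at an unadjusted p under 0.05), with a median of 0.06. The largest differences there were 0.23 for Il36b, a ligand of the IL-36 branch (adjusted p = 0.1001), and 0.17 for its receptor Il1rl2. Of 11 measured genes of the inflammasome, which activates IL-1 beta and IL-18, 1 rose: Casp4, the caspase that senses intracellular lipopolysaccharide, by 0.35 (SE 0.08, adjusted p = 0.0441). Nlrp3, Nlrc4, Nlrp1a and Card8 were also listed but had no probe set with that gene as its only symbol, so they were not measured. Casp1, the caspase that cleaves both precursors, and its adaptor Pycard, named outside the fixed rule, differed by 0.21 and 0.26 and did not pass (adjusted p = 0.405 and 0.279).

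Among 23 genes that carry the signal from the receptor, 1 rose and 0 fell in limma, with a median of 0.07. It was Irak3, a kinase-like protein that restrains the pathway, from 8.59 ± 0.15 (SD, n = 3) to 9.04 ± 0.08 (SD, n = 5), by 0.45 (adjusted p = 0.0183). The adaptors Myd88 and Traf6, named after their values were seen, differed by 0.50 and 0.37 with no overlap between groups and did not pass (adjusted p = 0.0758 and 0.0850). Of the 23 genes, 4 were higher and 3 lower in ILPD without overlap, beside 7.95% and 4.42% of all probe sets. The lower ones were Mapk9 (-0.25), Tab2 (-0.14) and Irak1 (-0.10), which did not pass either. Of 29 genes that IL-1 is known to induce, 4 rose and 0 fell, 27 had a positive difference, and the median was 0.39. These were the neutrophil chemokine Cxcl2 by 1.26 (adjusted p = 0.0291), Nfkbia, the inhibitor of NF-kB, by 0.71 (0.0462), the monocyte chemokine Ccl2 by 0.64 (0.0358) and the gelatinase Mmp9, also a neutrophil granule protein, by 0.58 (0.0466). Cxcl2 read 7.64, 7.98 and 8.44 in placebo and 9.32, 9.77, 9.21, 9.48 and 8.61 in ILPD, with no overlap. Il6, named outside the rule, differed by 0.66 and did not pass (adjusted p = 0.380). Many other stimuli induce these targets, and the lists were chosen with earlier results of these data known.

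The differences of the 6 called genes kept their sign in every alternative, but their calls were often lost. The differences ran from 1.07 to 1.47 for Cxcl2, 0.61 to 0.90 for Nfkbia, 0.48 to 0.81 for Ccl2, 0.49 to 0.68 for Mmp9, 0.36 to 0.51 for Irak3 and 0.26 to 0.38 for Casp4. The count of 6 became 1 and 0 when placebo array 1 or 2 was left out. It became 2 without placebo array 3, with Cxcl2 higher and Txnip, a thioredoxin inhibitor, lower (-0.42). Without placebo array 2 the count over the whole array also fell, from 811 to 172. With placebo array 2 left out, 18 genes had an unadjusted p under 0.05 in limma. The count was 1 with ILPD array 2 left out, 2 with ILPD array 4 left out and 10 with ILPD array 5 left out. Of those 10, all higher, only Irak3 and Cxcl2 were among the 6. The others were Myd88, Ccl7, Vcam1, Selp, Lcn2, Birc3, Socs3 and Cebpd. Irak3 was called in 11 of 15 alternatives and Cxcl2 in 10, Ccl2 and Nfkbia in 7 each, Casp4 in 5 and Mmp9 in 2, with the highest adjusted p at 0.0766 for Irak3 and 0.162 for Mmp9. All 6 calls were lost with placebo array 2 left out; those of Casp4, Irak3, Ccl2, Mmp9 and Nfkbia also with placebo array 3 left out, and those of all but Irak3 with placebo array 1 left out. Of single ILPD arrays, leaving out array 2 ended the calls of all but Irak3. Leaving out array 4 ended those of Casp4, Cxcl2, Ccl2 and Mmp9, and leaving out array 5 those of Casp4, Ccl2, Mmp9 and Nfkbia. Without array 1 the calls of Mmp9 and Nfkbia were lost, and without array 3 those of Cxcl2 and Nfkbia.

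**Figure D4:**
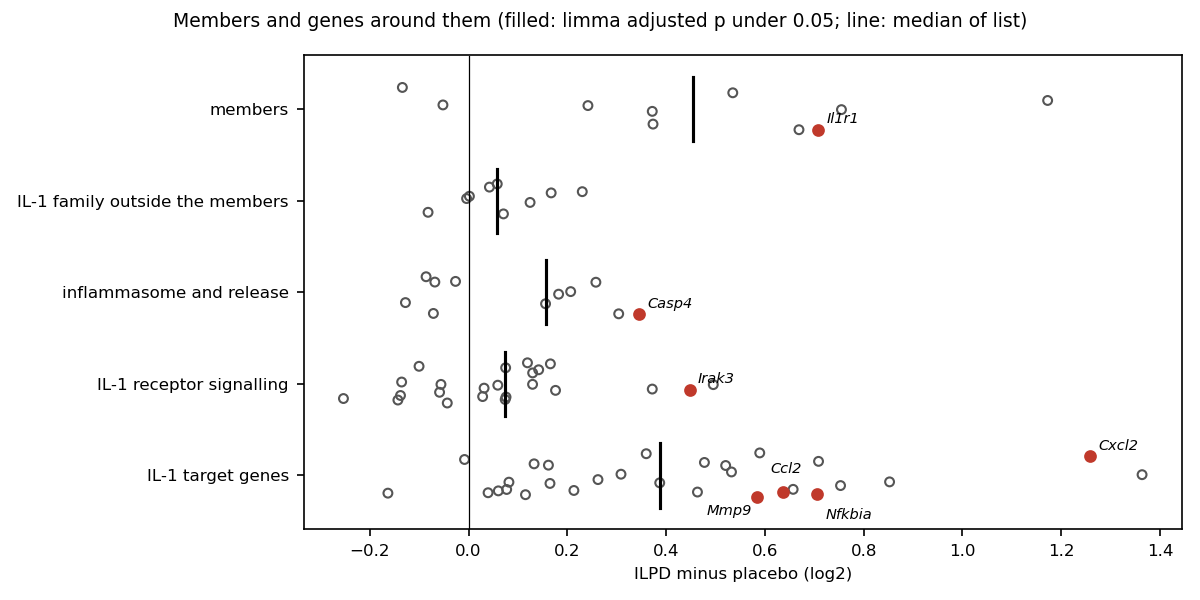
Difference between ILPD and placebo in log2 units (horizontal axis) for the members and for the genes of 4 lists around them (vertical axis, points spread for legibility); filled red points passed limma's adjusted p of 0.05 and vertical lines are medians. The medians of the members (0.45) and of the IL-1 target genes (0.39) lie to the right of those of the other lists, which run from 0.06 to 0.16.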

How the data were processed

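Total RNA of left ventricle was labelled with biotin and hybridised to Affymetrix arrays, per the labels' protocols. The authors deposited log2 values, a scale settled here from their range of 4.77 to 14.8; how they were normalized is not given in the sources available for this work, and the submitters' processing notes name R 2.14.2. Of 28826 probe sets, 15209 had 1 symbol, 306 several and 13311 none in the platform annotation; 15178 were matched to RefSeq (GRCr8) by gene ID. Outside the members, a gene's brightest probe set stood for it. Differences were fitted with limma 3.58.1 in R 4.3.3 (lmFit, eBayes, no covariates, two-sided, Benjamini-Hochberg over all probe sets, threshold 0.05), after a check on simulated data. The members and lists were chosen with earlier results of these data known. The naming rule took all members, the called genes of each list and the 2 largest differences in a pathway list without calls. It also took the first 3 markers of each marker list and the 3 nearest profiles to a called member. Differences of the first 3 markers are given above only for the neutrophil, the monocyte and macrophage, and the endothelial lists. No scan date or batch was used here. Alternatives were a robust prior with an intensity trend, quantile or cyclic loess normalization, leaving out the dimmest 40%, array weights, a replicate block, a threshold of 0.1, averaging the probe sets of a gene, leaving out each array, and, added after seeing the data, the block's 6 arrays without a block. Figures used matplotlib 3.10.9.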

Additional observations from a re-analysis of the deposited data

Results flagged for a closer look

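For 62 genes (the members and those named by the rule), the highest and lowest of the 5 ILPD arrays were compared with the nearest other array by Dixon's test, which chance passes in about 1 of 20 groups; 3 stood apart. Il18r1 read 6.41 on ILPD array 1, against 6.18 on the next highest ILPD array. Mmp9 read 7.07 on ILPD array 3, against 7.49 on the next lowest. Myh4, a skeletal muscle myosin, read 6.55 on ILPD array 2, against 6.39 on the next highest.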

How the results depend on the processing

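The differences of all 10 members kept their sign in every alternative, and Il1r1 kept its call in all 15. The count of members called, 1 as deposited, was 2 without the dimmest 40% of probe sets, 4 with the replicate block, 2 on the block's 6 arrays without a block, 4 at an adjusted p under 0.1, and 1 to 2 when single arrays were left out (2 without ILPD array 3 and without ILPD array 5). The count over all probe sets, 811, was 484 after quantile normalization, 459 with the replicate block and 1756 at an adjusted p under 0.1, and ran from 172 to 975 when single arrays were left out: 385, 172 and 241 without placebo array 1, 2 or 3, and 382, 500 and 459 without ILPD array 2, 3 or 4. The pathway count, 6, ran from 0 to 10 when single arrays were left out. Whether equal replicate numbers mean paired arrays could not be settled, since only 3 numbers occur in both groups. Deviations from the group means correlated at 0.22, -0.06 and -0.10 for numbers 1, 2 and 3. The 2 arrays numbered 1 correlated best with each other, which was not so for numbers 2 and 3. Besides Il1r1, the fit with the block called Il1a, Il1r2 and Il33; the same 6 arrays without it also called Il1a. Precision was limited by 3 and 5 arrays, and no background signal was available to say which dim probe sets, such as that of Il18r1, measured their gene.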
